A study of Mus musculus with 16 samples.

Results

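The 10 core genes of the circadian clock, namely Arntl, Clock, Npas2, Per1, Per2, Per3, Cry1, Cry2, Nr1d1 and Nr1d2, were followed in the liver RNA of 16 mice. They were chosen by name, as the genes that make up the standard description of the clock, with no threshold on their values. The choice was made with earlier results of these data known. The deposited table held 24970 genes, of which 12913 passed a filter on low counts, and all 10 clock genes were among these 12913. Wild-type C57BL/6 Ntac mice and humanized PXR-CAR-CYP3A4/3A7 mice were given either vehicle, which was 2% DMSO in corn oil, or TCPOBOP, a man-made compound that potently activates CAR, the constitutive androstane receptor, in mice. TCPOBOP was dosed at 3 mg/kg in 2 administrations 24 h apart, and livers were harvested after 48 h of treatment. Each of the 4 combinations of strain and treatment had 4 libraries of polyadenylated RNA from snap-frozen liver. The humanized strain is named for the xenobiotic receptors PXR and CAR and for the drug-metabolizing enzymes CYP3A4 and CYP3A7, and its control is the C57BL/6 Ntac strain. The labels used here give neither the sex and age of the mice, nor the light schedule, nor the time of day at which livers were taken. A difference in the level of a clock gene and a difference in the phase of its daily rhythm can therefore not be told apart in these data. In whole liver, fewer cells of a type and less RNA per cell can likewise not be told apart.

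The clock is a feedback loop of transcription that runs in nearly every cell and drives a large part of the daily rhythm of liver metabolism. ARNTL (also called BMAL1) pairs with CLOCK or with its relative NPAS2 and activates the Per, Cry and Nr1d genes through E-boxes, and the PER and CRY proteins then inhibit that pair. In a second loop, NR1D1 and NR1D2 (REV-ERB alpha and beta) repress Arntl, Npas2 and Cry1, and DBP and its relatives act through D-boxes on genes such as Per3, so that in liver Arntl and Npas2 peak at the opposite time of day from Dbp and Per3.

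Expression is given in CPM, that is, read counts scaled to a common library size with TMM factors, and log2 changes are given ± SE from edgeR's quasi-likelihood F test with Benjamini-Hochberg adjustment over all 12913 genes of a comparison. A gene is said to have risen, fallen or differed where this adjusted p was under 0.05. The wild-type TCPOBOP libraries were the deepest, with 30228724 to 37998473 counts each, and the 12 others held between 11827994 and 19483951. The hepatocyte markers Alb, Apoa1, Apob, Cps1, Hnf4a and Cyp2e1 summed to between 27488 and 88541 CPM in the 16 libraries.

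Promoter windows from RefSeq on GRCm38.p6, from 250 bases before to 50 bases after a transcription start, were found for 9 of the 10 genes, in 13 windows. They were searched on both strands for the E-box CACGTG, the E'-box CACGTT, the D-box TTATGNAA and the core of the element bound by ROR and REV-ERB proteins (RORE), TAGGTCA or TGGGTCA. Of 32851 such windows in the reference, 7.15% held the E-box, 4.68% the E'-box, 3.38% the D-box and 6.45% the RORE core, and no letters of one motif overlapped another in the windows printed here. For each of the 4 clock genes that changed with TCPOBOP in humanized liver, a window that held a motif is shown, with the motifs found in capitals. Positions count from 1 at the start base and from -1 just before it. Arntl had 2 overlapping windows, of which 1 (chr7:113207261-113207560, plus strand) held 1 RORE core at positions 31 to 37 and the other (chr7:113207215-113207514) held none of the motifs.
Arntl: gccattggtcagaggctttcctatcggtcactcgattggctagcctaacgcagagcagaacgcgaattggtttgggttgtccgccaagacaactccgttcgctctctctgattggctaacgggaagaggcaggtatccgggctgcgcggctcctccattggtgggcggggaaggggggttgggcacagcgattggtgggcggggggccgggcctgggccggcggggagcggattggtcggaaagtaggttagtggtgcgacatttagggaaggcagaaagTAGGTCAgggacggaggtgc
The Per3 window (chr4:151044616-151044915, minus strand) held 2 D-boxes, at positions -205 to -198 and -158 to -151.
Per3: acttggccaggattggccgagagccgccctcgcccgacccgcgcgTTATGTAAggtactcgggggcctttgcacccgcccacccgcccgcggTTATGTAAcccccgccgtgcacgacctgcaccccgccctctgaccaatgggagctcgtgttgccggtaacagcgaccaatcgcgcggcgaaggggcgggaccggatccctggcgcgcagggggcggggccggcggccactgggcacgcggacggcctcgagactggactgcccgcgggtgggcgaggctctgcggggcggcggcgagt
The Cry1 window (chr10:85185005-85185304, minus strand) held an E'-box, which reads AACGTG here, at positions -79 to -74 and an E-box at positions -60 to -55.
Cry1: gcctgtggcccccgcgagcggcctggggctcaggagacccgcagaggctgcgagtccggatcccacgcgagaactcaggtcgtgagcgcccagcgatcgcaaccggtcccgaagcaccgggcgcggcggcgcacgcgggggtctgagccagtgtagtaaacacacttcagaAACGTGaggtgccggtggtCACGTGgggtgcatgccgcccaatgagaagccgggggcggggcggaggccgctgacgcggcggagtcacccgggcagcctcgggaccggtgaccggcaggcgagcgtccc
The Nr1d1 window (chr11:98775328-98775627, minus strand) held an E'-box at positions -28 to -23.
Nr1d1: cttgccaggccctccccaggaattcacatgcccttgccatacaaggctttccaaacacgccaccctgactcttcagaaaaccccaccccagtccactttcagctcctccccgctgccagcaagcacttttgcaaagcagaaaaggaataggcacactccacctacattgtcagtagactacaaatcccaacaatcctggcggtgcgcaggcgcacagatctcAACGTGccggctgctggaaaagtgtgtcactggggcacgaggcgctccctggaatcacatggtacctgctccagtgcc
Of the other windows, 1 of 2 of Per1 held an E-box and a D-box and that of Cry2 an E'-box, and those of Clock, Npas2 and Nr1d2 held none of these letters. A match describes the sequence and does not show that a factor binds there.

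Arntl and Per3 sat at opposite ends of the clock in single libraries, and this split did not follow the groups in every animal. The log2 difference of Arntl minus Per3 was 2.09, 2.60, 2.66 and 2.34 in humanized vehicle replicates 1 to 4. It was -1.87, -2.55, -1.09 and -1.52 in wild-type TCPOBOP replicates 1 to 4. In CPM, Arntl thus lay above Per3 in all 4 libraries of the first group and below it in all 4 of the second. CPM is not scaled to transcript length, and the transcripts measure 2908 bases for Arntl and 5999 for Per3. The sign of the difference therefore does not compare numbers of transcripts. In wild-type vehicle livers the difference was -2.18, -2.44, 1.13 and -2.05, and in humanized TCPOBOP livers it was -1.81, 1.47, -3.65 and -1.58. Wild-type vehicle replicate 3 and humanized TCPOBOP replicate 2 therefore stood apart from the other 3 libraries of their groups, with Arntl above Per3 in CPM as in humanized vehicle livers. The same pair of libraries held less Dbp (11.6 and 20.1 CPM) than the other 3 libraries of their groups, which held 44.4 to 81.3 CPM and 79.7 to 105.7 CPM. Over the 1000 most variable genes, the humanized TCPOBOP group split otherwise. On the first principal component its replicates 1 and 2 lay at -32.79 and -25.47 and its replicates 3 and 4 at -12.36 and -15.9. The humanized vehicle libraries lay at -30.24 to -26.35. For the clock genes, values without either library of this pair are given where they end or make a call or move a printed change by over 1.5 times. The pair was picked by its clock gene values, so fits without it describe the data and are not fresh tests of these genes.

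**Figure D1:**
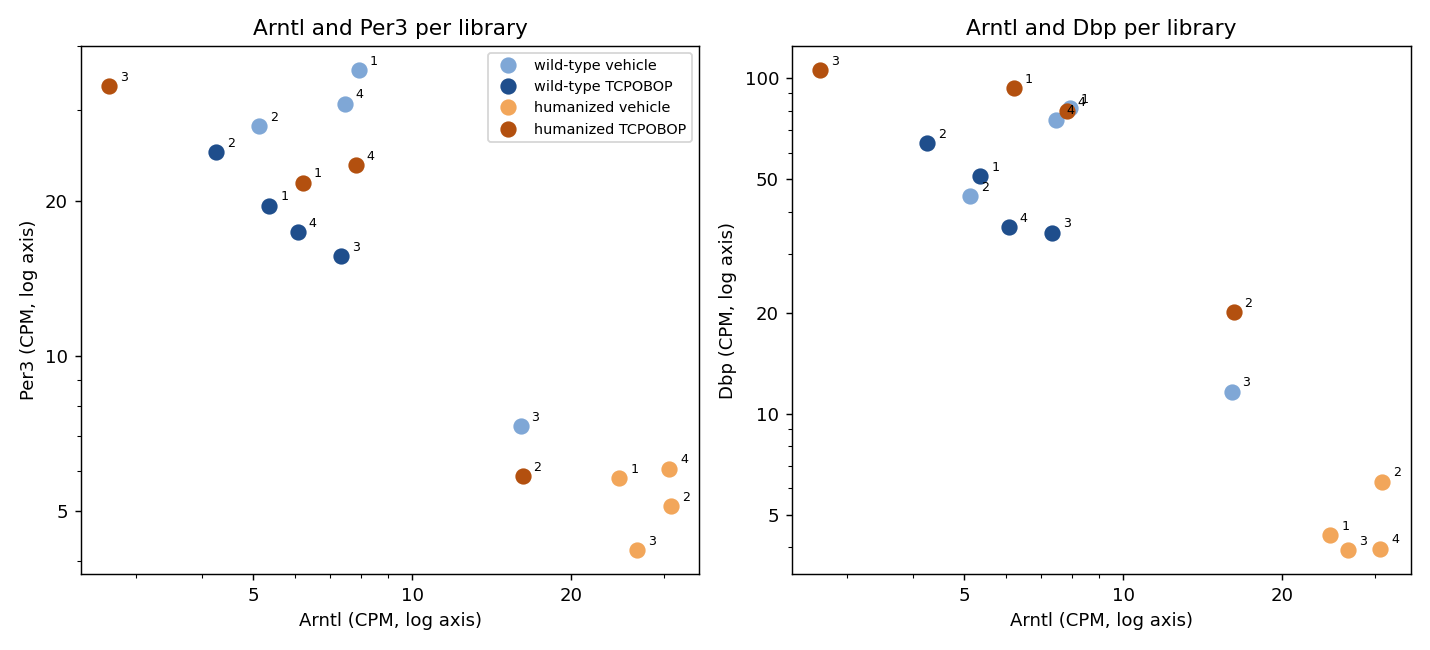
Arntl against Per3 (left) and Arntl against Dbp (right) in each of the 16 libraries, in CPM on log axes, with colours for the 4 groups and replicate numbers beside the points. Wild-type vehicle replicate 3 and humanized TCPOBOP replicate 2, both near 16 CPM of Arntl, lie between the 4 humanized vehicle libraries and the rest.

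The clock genes differed most between the strains under vehicle and between vehicle and TCPOBOP in humanized liver. Under vehicle, humanized livers held more Arntl, Npas2 and Cry1 and less Per3 and Cry2 than wild-type livers, so 5 of 10 clock genes differed (3 higher and 2 lower), against 16.1% of all genes tested (7.11% higher and 8.95% lower). In the same 5 genes the groups did not overlap, as in 26.4% of all genes. TCPOBOP in humanized liver lowered Arntl and Cry1 and raised Per3 and Nr1d1, so 4 of 10 changed (2 higher and 2 lower), against 2.52% of all genes (1.32% higher and 1.19% lower). There the vehicle and TCPOBOP libraries did not overlap in 6 of 10 clock genes, against 9.95% of all genes. In wild-type liver TCPOBOP lowered Cry1 alone among the 10, against 13.1% of all genes called (8.1% higher and 4.99% lower) and 20.9% without overlap. The median absolute log2 change of the 10 genes was 0.36 in wild-type and 0.88 in humanized liver, and that of all genes was 0.29 and 0.26. For the strain difference under vehicle it was 0.72 for the 10 genes and 0.40 for all genes. Humanized vehicle libraries enter both the second and the first of these comparisons, so opposite signs there share 4 libraries and are not separate evidence.

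**Figure D2:**
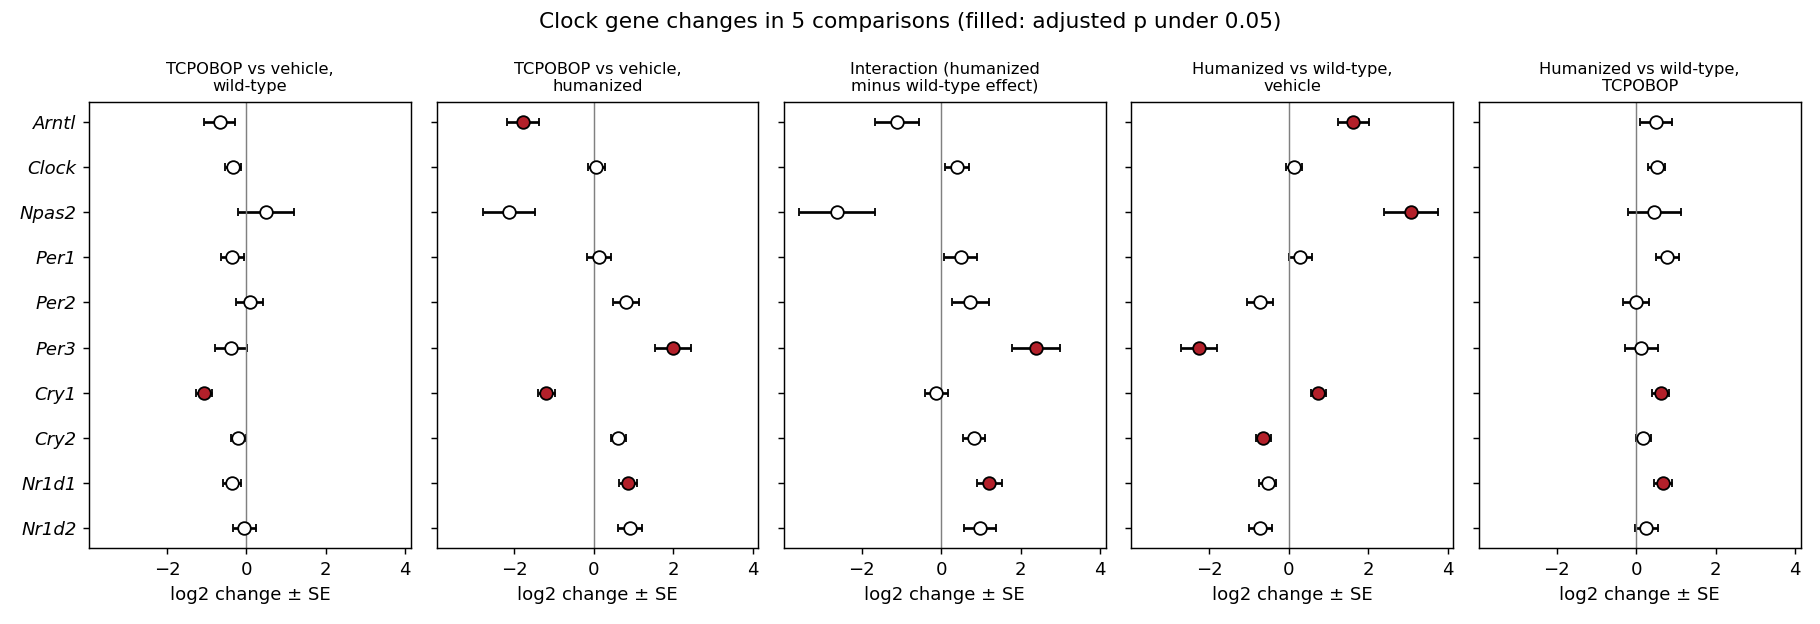
Log2 change ± SE of the 10 clock genes in 5 comparisons, 1 panel each, with filled points where the adjusted p was under 0.05. Cry1 is the filled point of the wild-type panel, and Arntl, Per3, Cry1 and Nr1d1 are those of the humanized panel.

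Some markers of liver cell types passed in these comparisons. The shares of all genes called were 16.1% between the strains under vehicle and 24.6% under TCPOBOP. With TCPOBOP they were 2.52% in humanized and 13.1% in wild-type liver. A count of 1 of 6 markers is near the share between the strains under vehicle and in wild-type liver. Of 6 Kupffer cell markers, 5 were lower in humanized than in wild-type vehicle livers, where they summed to 162.9 to 300.6 and 358.9 to 766.3 CPM, and none passed with TCPOBOP in humanized liver (179.3 to 444.8 CPM). Of 6 stellate cell markers, 1 was lower in humanized vehicle livers (sums of 202.9 to 218.9 against 228.5 to 281.1 CPM) and 1 fell with TCPOBOP in humanized liver (68.9 to 190.0 CPM). Of 6 sinusoidal endothelial markers, 1 was lower in humanized vehicle livers, with sums of 201.4 to 275.3 against 341.1 to 675.1 CPM. Under TCPOBOP, humanized livers held less of 2 sinusoidal endothelial and 1 stellate marker and more of 2 hepatocyte markers. Of 6 hepatocyte markers, 1 was lower in humanized vehicle livers (44277 to 56741 against 60300 to 88541 CPM), and 1 fell with TCPOBOP in wild-type liver (27488 to 39420 CPM). Of 3 erythroid markers 2 were lower and of 4 cholangiocyte markers 1 was higher in humanized vehicle livers. The neutrophil, lymphocyte and adipocyte markers summed to at most 15.0, 3.78 and 5.90 CPM. Of 4 pancreatic acinar markers, Cpa1, Prss2 and Ctrb1 were at 0 in both vehicle groups, where the list summed to 10.4 to 20.5 CPM (wild-type) and 6.45 to 9.78 CPM (humanized). The 1 acinar marker tested fell with TCPOBOP in wild-type liver and had a positive interaction. It was lower in humanized livers under vehicle and higher under TCPOBOP. The part of these cell types in the clock gene values was not tested.

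Of the activators, Arntl (NM_007489, chromosome 7, 113178471 to 113314126, mm10), the partner common to both activator pairs, changed with TCPOBOP in humanized liver and differed between the strains under vehicle. It stood at 7.92, 5.14, 16.1 and 7.46 CPM in wild-type vehicle replicates 1 to 4 and at 24.7, 31.0, 26.6 and 30.7 CPM in humanized vehicle replicates 1 to 4. In TCPOBOP livers it stood at 5.37, 4.25, 7.35 and 6.07 CPM in wild-type and at 6.20, 16.2, 2.66 and 7.82 CPM in humanized mice. The humanized vehicle libraries were the 4 highest of all 16, with no overlap with any other group. Arntl was 3.08-fold higher in humanized than in wild-type vehicle livers (log2 1.62 ± 0.39, adjusted p = 0.0152), and this call held without any 1 of the 16 libraries (adjusted p from 0.00577 to 0.0418). TCPOBOP lowered it 3.47-fold in humanized liver, from 28.2 ± 3.09 to 8.22 ± 5.73 CPM (SD, n = 4, log2 -1.79 ± 0.40, edgeR adjusted p = 0.0269). The fall was -2.34 without humanized TCPOBOP replicate 2 (adjusted p = 0.00508). It missed the threshold without any 1 of the 4 humanized vehicle libraries (adjusted p = 0.069, 0.0501, 0.0652 and 0.0843) and without humanized TCPOBOP replicate 3 or 4 (adjusted p = 0.0518 and 0.0664). In wild-type liver the change was -0.67 ± 0.39 (adjusted p = 0.318), and it was -0.24 without wild-type vehicle replicate 3 (adjusted p = 0.788). Humanized TCPOBOP livers did not differ past the threshold from wild-type TCPOBOP livers (0.50 ± 0.40, adjusted p = 0.378), and the difference was -0.05 without humanized TCPOBOP replicate 2 (adjusted p = 0.937).

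Npas2 (NM_008719, chromosome 1, 39193702 to 39363240), which can stand in for CLOCK, was the scarcest activator, with 2 to 102 counts per library. It stood at 0.440, 0.761, 1.69 and 0.546 CPM in wild-type vehicle and at 6.63, 7.68, 5.33 and 10.6 CPM in humanized vehicle livers. It stood at 0.876, 0.447, 1.59 and 2.07 CPM in wild-type TCPOBOP and at 1.48, 5.16, 0.205 and 0.356 CPM in humanized TCPOBOP livers. As with Arntl, the 4 humanized vehicle libraries were the highest of the 16, and humanized TCPOBOP replicate 2 was the highest outside that group. Npas2 was 8.51-fold higher in humanized than in wild-type vehicle livers (log2 3.09 ± 0.68, adjusted p = 0.0107), a call that held without any 1 library (adjusted p from 0.00296 to 0.0356). In humanized liver all 4 TCPOBOP libraries lay below all 4 vehicle libraries, but the change of -2.13 ± 0.65 did not pass (adjusted p = 0.0887). Without humanized TCPOBOP replicate 2 it was -3.57 and passed (adjusted p = 0.00901). The wild-type change was 0.49 ± 0.71 (adjusted p = 0.745), or 1.05 without wild-type vehicle replicate 3 (adjusted p = 0.503).

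Clock (NM_001289826, chromosome 5, 76209868 to 76305603), the usual partner of ARNTL, passed no test. Its mean was 41.5 ± 13.1 CPM in wild-type vehicle, 32.7 ± 4.03 in wild-type TCPOBOP, 45.2 ± 4.17 in humanized vehicle and 47.0 ± 8.44 in humanized TCPOBOP livers (SD, n = 4). Wild-type vehicle replicate 2 was the lowest of its group at 22.8 CPM, and the other 3 held 41.7 to 50.9 CPM. Clock changed by 0.06 ± 0.21 with TCPOBOP in humanized liver (adjusted p = 0.929) and by -0.34 ± 0.21 in wild-type liver (adjusted p = 0.349), the latter passing only without wild-type vehicle replicate 2 (-0.55, adjusted p = 0.0274). Under TCPOBOP all 4 humanized libraries lay above all 4 wild-type libraries without passing (0.52 ± 0.21, adjusted p = 0.0787), and this difference too passed without that library (0.53, adjusted p = 0.0136).

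**Figure D3:**
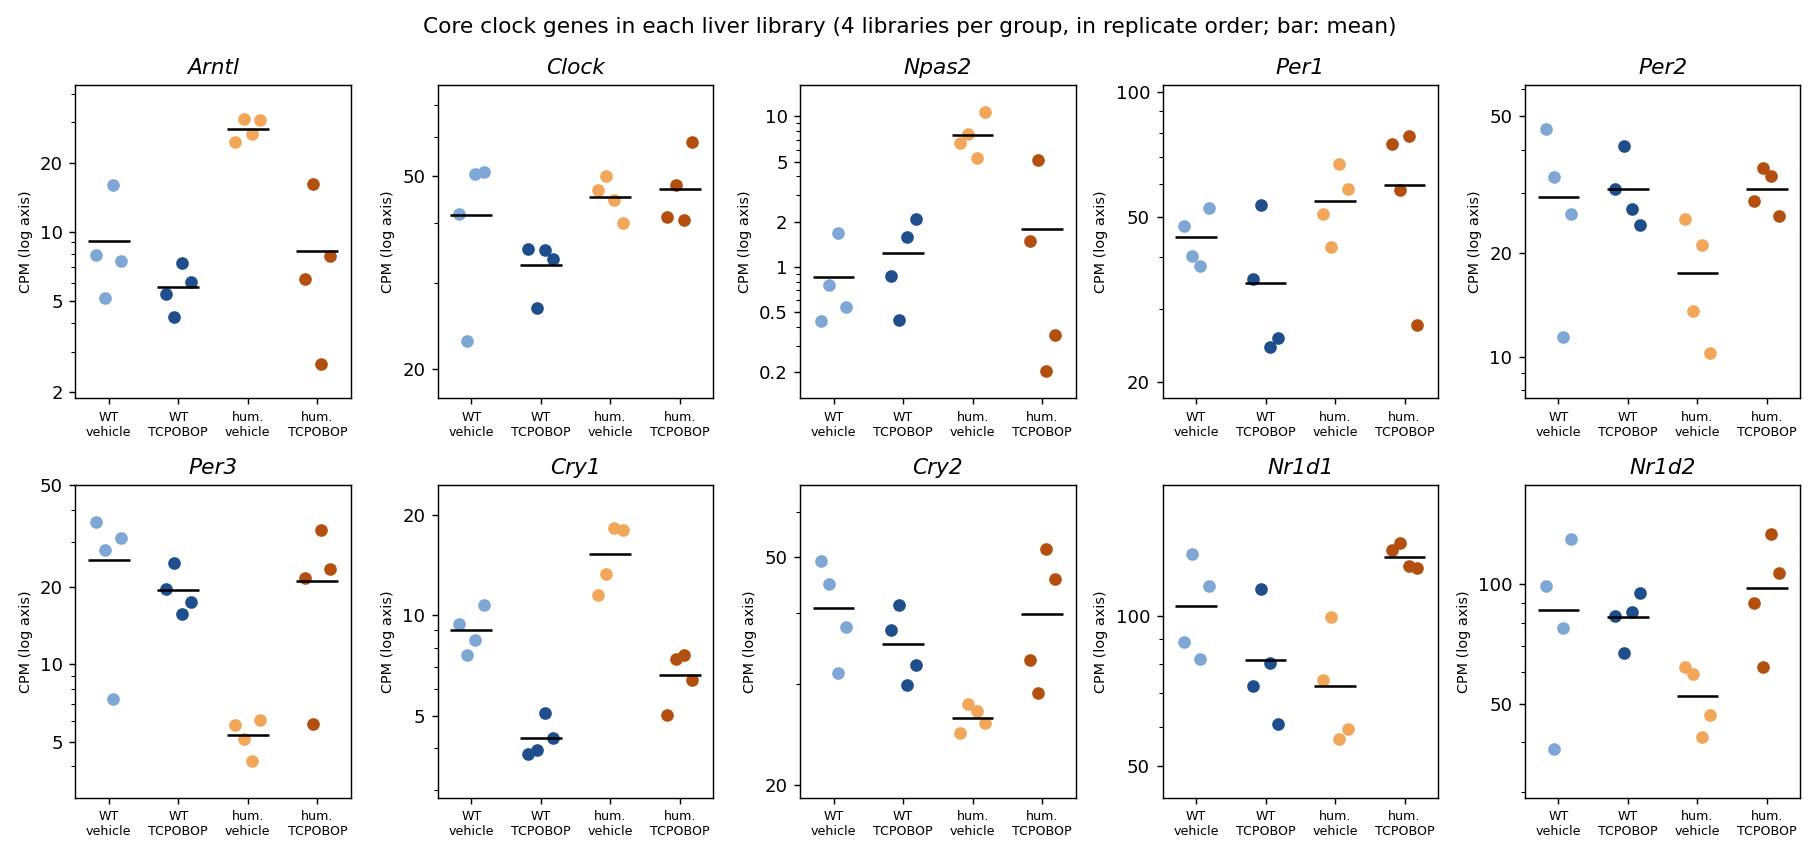
CPM of the 10 clock genes in each library on log axes, 1 panel per gene, with the 4 replicates of a group in order from left to right and a bar at the group mean. The humanized vehicle libraries are the highest of all in the Arntl and Npas2 panels and hold the lowest mean in the Per3 panel.

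Among the repressors of the pair, Per3 (NM_001289878, chromosome 4, 150997018 to 151044707), a Period gene whose loss leaves the mouse clock running, moved the other way from Arntl. It stood at 36.0, 28.0, 7.32 and 30.9 CPM in wild-type vehicle and at 5.81, 5.12, 4.21 and 6.05 CPM in humanized vehicle livers. It stood at 19.6, 24.9, 15.6 and 17.4 CPM in wild-type TCPOBOP and at 21.7, 5.86, 33.4 and 23.5 CPM in humanized TCPOBOP livers. Every library outside the humanized vehicle group exceeded 15 CPM except the pair that stood apart above, and only humanized TCPOBOP replicate 2 fell within the humanized vehicle range. Per3 was 4.78-fold lower in humanized than in wild-type vehicle livers (log2 -2.26 ± 0.45, adjusted p = 0.00667). That call held without any 1 library (adjusted p from 0.00135 to 0.0281). TCPOBOP raised Per3 3.98-fold in humanized liver, from 5.30 ± 0.827 to 21.1 ± 11.4 CPM (SD, n = 4, log2 1.99 ± 0.45, edgeR adjusted p = 0.0295), with 3 of 4 libraries above all vehicle libraries. Without humanized TCPOBOP replicate 2 the rise was 2.32 (adjusted p = 0.00516). It did not pass without any 1 humanized vehicle library (adjusted p = 0.0965, 0.0551, 0.0828 and 0.0848), without humanized TCPOBOP replicate 3 or 4 (adjusted p = 0.0831 and 0.0593), or in limma-voom (1.77, adjusted p = 0.115). In wild-type liver Per3 changed by -0.39 ± 0.41 (adjusted p = 0.628), and by -0.70 without wild-type vehicle replicate 3 (adjusted p = 0.252).

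Per1 and Per2, the Period genes on which the mouse rhythm depends, passed no test. Per1 (NM_011065, chromosome 11, 69095108 to 69109965) stood at 44.7 ± 6.71 CPM in wild-type vehicle, 34.8 ± 13.5 in wild-type TCPOBOP, 54.7 ± 10.6 in humanized vehicle and 59.9 ± 23.3 in humanized TCPOBOP livers (SD, n = 4). Its humanized TCPOBOP libraries ranged from 27.5 to 78.7 CPM and overlapped every other group. Per1 was 0.78 ± 0.29 higher on the log2 scale in humanized than in wild-type TCPOBOP livers (adjusted p = 0.0563). This difference passed without humanized TCPOBOP replicate 4 (1.02, adjusted p = 0.0062), without wild-type TCPOBOP replicate 2 (1.07, adjusted p = 0.0164) or without wild-type vehicle replicate 2 (0.80, adjusted p = 0.0457). The TCPOBOP changes of Per1 were -0.36 ± 0.29 in wild-type and 0.13 ± 0.29 in humanized liver.

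Per2 (NM_011066, chromosome 1, 91415977 to 91459351) stood at 45.8, 33.3, 11.45 and 26.01 CPM in wild-type vehicle and at 25.1, 13.6, 21.2 and 10.2 CPM in humanized vehicle livers. It stood at 30.8, 41.0, 27.0 and 24.2 CPM in wild-type TCPOBOP and at 28.4, 35.3, 33.6 and 25.6 CPM in humanized TCPOBOP livers. Humanized TCPOBOP libraries all lay above the humanized vehicle libraries, but the change of 0.81 ± 0.33 did not pass (adjusted p = 0.208). The strain difference under vehicle was -0.73 ± 0.33 (adjusted p = 0.131) and passed without wild-type vehicle replicate 3 (adjusted p = 0.0345). In TCPOBOP livers the means were 30.7 ± 7.35 and 30.7 ± 4.51 CPM (SD, n = 4) in the wild-type and humanized groups.

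Cry1 (NM_007771, chromosome 10, 85131700 to 85185054), which encodes the cryptochrome that represses the ARNTL pair late in the cycle, was the only clock gene that TCPOBOP lowered in both strains. It stood at 9.39, 7.61, 8.45 and 10.7 CPM in wild-type vehicle and at 3.83, 3.94, 5.10 and 4.29 CPM in wild-type TCPOBOP livers. It stood at 11.51, 13.3, 18.2 and 17.95 CPM in humanized vehicle and at 5.02, 7.39, 7.58 and 6.40 CPM in humanized TCPOBOP livers. In each strain all 4 TCPOBOP libraries lay below all 4 vehicle libraries. Cry1 fell 2.10-fold in wild-type liver (log2 -1.07 ± 0.20, adjusted p = 0.00142) and 2.30-fold in humanized liver (log2 -1.20 ± 0.21, adjusted p = 0.00567). Both falls were called without any 1 library, with adjusted p values of 0.000652 to 0.00687 and of 0.00361 to 0.033, and their difference was -0.13 ± 0.29 (adjusted p = 0.862). The pair of libraries that stood apart in Arntl and Per3 did not stand apart in Cry1.

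Cry1 was also higher in humanized livers under both treatments. The difference was 0.75 ± 0.20 under vehicle (1.68-fold, adjusted p = 0.0218, no overlap) and 0.62 ± 0.21 under TCPOBOP (1.54-fold, adjusted p = 0.0359, 3 of 4 humanized libraries above all wild-type libraries). Under vehicle it did not pass without humanized vehicle replicate 3 or 4 (adjusted p = 0.0726 and 0.0732) or wild-type vehicle replicate 3 (adjusted p = 0.0501). Under TCPOBOP it did not pass without humanized TCPOBOP replicate 2 or 3 (adjusted p = 0.0832 and 0.0796) or without wild-type TCPOBOP replicate 1, 2 or 4 (adjusted p = 0.087, 0.0834 and 0.0803).

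Cry2 (NM_009963, chromosome 2, 92403646 to 92434085), the second cryptochrome, had its lowest values in humanized vehicle livers. It stood at 49.3, 44.9, 31.4 and 37.8 CPM in wild-type vehicle and at 24.7, 27.7, 26.9 and 25.7 CPM in humanized vehicle livers. The wild-type TCPOBOP libraries ranged from 29.9 to 41.2 CPM and the humanized TCPOBOP libraries from 29.0 to 51.6 CPM, so that the humanized vehicle group lay below all other libraries. Cry2 was 1.56-fold lower in humanized than in wild-type vehicle livers (log2 -0.64 ± 0.19, adjusted p = 0.0347). This call was lost without humanized vehicle replicate 1, 3 or 4 (adjusted p = 0.0941, 0.0774 and 0.0843) or wild-type vehicle replicate 1 (adjusted p = 0.0895), and on library totals without TMM scaling (adjusted p = 0.0665). The TCPOBOP change in humanized liver was 0.61 ± 0.19 (adjusted p = 0.105) and passed without humanized TCPOBOP replicate 1 (0.71, adjusted p = 0.0385) or 2 (0.75, adjusted p = 0.0487). In wild-type liver it was -0.21 ± 0.19 (adjusted p = 0.558), or -0.32 without wild-type vehicle replicate 3 (adjusted p = 0.386). Its exons share 295 bases with D930015M05Rik on the opposite strand, which averaged 1.77 CPM.

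In the second loop, Nr1d1 (NM_145434, chromosome 11, 98767932 to 98775377), the nuclear receptor that represses Arntl, was higher in humanized TCPOBOP livers than in the other TCPOBOP or humanized group. It stood at 88.6, 132.7, 82.1 and 114.8 CPM in wild-type vehicle and at 74.3, 99.4, 56.6 and 59.5 CPM in humanized vehicle livers. It stood at 72.3, 113.2, 80.5 and 60.9 CPM in wild-type TCPOBOP and at 135.1, 139.8, 125.8 and 124.7 CPM in humanized TCPOBOP livers. Humanized TCPOBOP replicate 2, low in Per3 and Dbp, held the highest Nr1d1 value of the 16, and the group overlapped only wild-type vehicle libraries. TCPOBOP raised Nr1d1 1.81-fold in humanized liver, from 72.5 ± 19.6 to 131.3 ± 7.32 CPM (SD, n = 4, log2 0.86 ± 0.22, edgeR adjusted p = 0.0457). This call was close to the threshold and held in 5 of the 16 fits that left out 1 library. It was lost without humanized vehicle replicate 1, 3 or 4 (adjusted p = 0.133, 0.139 and 0.166) and without humanized TCPOBOP replicate 2, 3 or 4 (adjusted p = 0.0665, 0.083 and 0.083). It was also lost without wild-type vehicle replicate 1 or 4 (adjusted p = 0.0506 and 0.0507) and without wild-type TCPOBOP replicate 1, 3 or 4 (adjusted p = 0.0604, 0.0655 and 0.0515). In wild-type liver the change was -0.36 ± 0.22 (adjusted p = 0.336).

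Under TCPOBOP, Nr1d1 was 1.61-fold higher in humanized than in wild-type livers, with no overlap (log2 0.68 ± 0.22, adjusted p = 0.0284). This difference did not pass without humanized TCPOBOP replicate 2 (adjusted p = 0.0617) or wild-type TCPOBOP replicate 1, 3 or 4 (adjusted p = 0.0752, 0.0688 and 0.102). In this comparison 2 of the 10 clock genes differed, Cry1 and Nr1d1, both higher, against 24.6% of all genes (11.8% higher and 12.8% lower). The groups did not overlap in 2 of 10, Clock and Nr1d1, against 27.4% of all genes. The last exon of Nr1d1 lies across from exons of Thra, which encodes thyroid hormone receptor alpha, and 263 exon bases are shared on opposite strands. The sources used here do not say whether counting used strand, so reads from the shared bases cannot be assigned to either gene. Thra averaged 33.4 CPM over the 16 libraries, changed by 0.42 ± 0.27 with TCPOBOP in humanized liver (adjusted p = 0.444), and was 1.19 ± 0.27 higher on the log2 scale in humanized than in wild-type TCPOBOP livers (adjusted p = 0.00429). Its part in the Nr1d1 values was not tested.

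Nr1d2 (NM_011584, chromosome 14, 18204056 to 18239106), which acts alongside Nr1d1, passed no test. It stood at 99.2, 38.5, 77.5 and 130.4 CPM in wild-type vehicle and at 62.0, 59.6, 41.2 and 47.0 CPM in humanized vehicle livers. It stood at 83.4, 67.2, 85.1 and 95.01 CPM in wild-type TCPOBOP and at 89.8, 61.9, 134.2 and 107.0 CPM in humanized TCPOBOP livers. Wild-type vehicle replicate 2, low in Clock, was the lowest of all 16 libraries here. Nr1d2 changed by 0.91 ± 0.29 with TCPOBOP in humanized liver (adjusted p = 0.106) and differed by -0.72 ± 0.29 between the strains under vehicle (adjusted p = 0.0933). Without wild-type vehicle replicate 2 both passed, at 0.92 (adjusted p = 0.0261) and -0.97 (adjusted p = 0.0161).

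Whether the TCPOBOP effect itself differed between the strains was tested as an interaction, the humanized effect minus the wild-type effect. It passed for Per3 (2.39 ± 0.61, adjusted p = 0.0222) and Nr1d1 (1.21 ± 0.31, adjusted p = 0.0208), both positive, that is 2 of 10 clock genes against 7.46% of all genes (3.48% positive and 3.98% negative). For Per3 the strains' effects were 1.99 in humanized and -0.39 in wild-type liver, and for Nr1d1 they were 0.86 and -0.36. It did not pass for Arntl (-1.12 ± 0.56, adjusted p = 0.258), which was -1.66 without humanized TCPOBOP replicate 2 (adjusted p = 0.0499). Npas2 at -2.63 ± 0.96 (adjusted p = 0.107) was -4.05 without that library (adjusted p = 0.00772), and Cry2 at 0.82 ± 0.27 (adjusted p = 0.0784) was 0.97 (adjusted p = 0.0345). Without humanized TCPOBOP replicate 2, therefore, 5 of 10 clock genes passed, where 915 of the 13072 genes tested in that fit did. That library was singled out by its own Arntl, Per3 and Dbp values, so this count is not separate evidence about the clock genes. Cry2 also passed without humanized TCPOBOP replicate 1 (0.93, adjusted p = 0.0297), and Nr1d2, at 0.97 ± 0.41 (adjusted p = 0.174), passed without wild-type vehicle replicate 2 (1.23, adjusted p = 0.0189). The interaction of Per3 missed the threshold narrowly without humanized vehicle replicate 3, humanized TCPOBOP replicate 3, or wild-type TCPOBOP replicate 3 or 4 (adjusted p from 0.0501 to 0.0529), and it was 1.94 in limma-voom (adjusted p = 0.113). That of Nr1d1 missed it without humanized vehicle replicate 3 or 4 (adjusted p = 0.0501 and 0.0549) or wild-type TCPOBOP replicate 4 (adjusted p = 0.0546). The humanized effect is measured from vehicle livers in which Per3 was already 4.78-fold below the wild-type vehicle level, and these 4 libraries enter the interaction.

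Per length of transcript, Nr1d1 was the most abundant clock gene in every group. Its level was 38.4 ± 8.64 CPM per kb in wild-type vehicle, 30.0 ± 8.26 in wild-type TCPOBOP, 26.6 ± 7.19 in humanized vehicle and 48.3 ± 2.69 in humanized TCPOBOP livers (SD, n = 4), with no overlap with the next gene. Nr1d2 had rank 2 in 3 groups, at 17.7 to 21.1 CPM per kb, and in humanized vehicle livers Per1 (11.7), Nr1d2 (11.3) and Arntl (9.71 CPM per kb) followed with neighbours that overlapped. Arntl had rank 4 in that group and rank 8 in the other 3, where it stood at 1.98 to 3.14 CPM per kb and overlapped the next gene, Cry1. Npas2 was the lowest in those 3 groups, at 0.203 to 0.425 CPM per kb, and did not overlap Cry1. In humanized vehicle livers Per3 took the last place at 0.883 ± 0.138 CPM per kb, below Npas2 at 1.79 ± 0.534, with no overlap.

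Between animals of a group, the SD of the log2 level exceeded the median SD of all genes for 6 of the 10 clock genes in wild-type vehicle, 10 in wild-type TCPOBOP, 7 in humanized vehicle and 6 in humanized TCPOBOP livers. In humanized TCPOBOP livers it was 1.09 for Per3 and 1.04 for Arntl, against a median of 0.37 over the 9758 genes with a mean of at least 5 CPM. Npas2, at 1.74, had 2 to 37 counts in these libraries and lies below that minimum, so its SD also holds counting error and is not comparable with the median, although the counts above include it. The SD was 0.08 for Nr1d1 and 0.21 for Per2 in the same libraries. In wild-type vehicle livers it was 1.05 for Per3, 0.85 for Per2, 0.75 for Nr1d2 and 0.67 for Arntl against a median of 0.33, and 0.21 for Cry1 and Per1. In humanized vehicle livers, by contrast, Arntl (0.16), Clock (0.13) and Cry2 (0.07) lay under the median of 0.19.

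Of the D-box factors, transcription factors through which the clock acts on output genes, Dbp was low in the libraries where Per3 was low. Dbp stood at 81.3, 44.4, 11.6 and 75.2 CPM in wild-type vehicle and at 4.35, 6.29, 3.92 and 3.97 CPM in humanized vehicle livers. It stood at 51.0, 63.9, 34.6 and 35.9 CPM in wild-type TCPOBOP and at 93.2, 20.1, 105.7 and 79.7 CPM in humanized TCPOBOP livers. The 4 humanized vehicle libraries were thus the lowest of the 16. Hlf did not share this order, since its humanized vehicle libraries (29.3 to 34.2 CPM) lay within the wild-type TCPOBOP range (27.4 to 46.0 CPM). Nfil3 stood at 71.2, 75.9, 23.8 and 23.5 CPM in humanized TCPOBOP livers, with replicates 1 and 2 above 3 and 4. Counts over this list and the lists below stand against the shares of all genes called. With TCPOBOP these were 2.52% in humanized and 13.1% in wild-type liver, and 7.46% in the interaction. Between the strains they were 16.1% under vehicle and 24.6% under TCPOBOP. Of the 4 D-box factors tested, 2 rose with TCPOBOP in humanized liver, Dbp (log2 4.01 ± 0.55, 16.1-fold, adjusted p = 0.00132) and Tef (1.28 ± 0.26, adjusted p = 0.0156). Without humanized vehicle replicate 3 or 4 the rise of Tef did not pass (adjusted p = 0.0652 and 0.0679). None passed edgeR's test in wild-type liver, where 1 had an unadjusted p under 0.05 and DESeq2 called 1, and Dbp changed by -0.19 ± 0.47. The interaction passed for Dbp (4.20 ± 0.71, adjusted p = 0.00148) and Tef (1.61 ± 0.36, adjusted p = 0.0105). Under vehicle, humanized livers held 11.4-fold less Dbp (adjusted p = 0.00131), 2.04-fold less Tef (adjusted p = 0.0168, and 0.0557 without humanized vehicle replicate 3) and 4.42-fold more Nfil3, the factor that opposes DBP at D-boxes (adjusted p = 0.00196). Nfil3 remained 3.95-fold higher in humanized livers under TCPOBOP (adjusted p = 0.000514). It was the 1 D-box factor of 4 that passed there, near the 24.6% of all genes. The median log2 change of the 4 factors was 1.03 in humanized and -0.44 in wild-type liver.

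**Figure D4:**
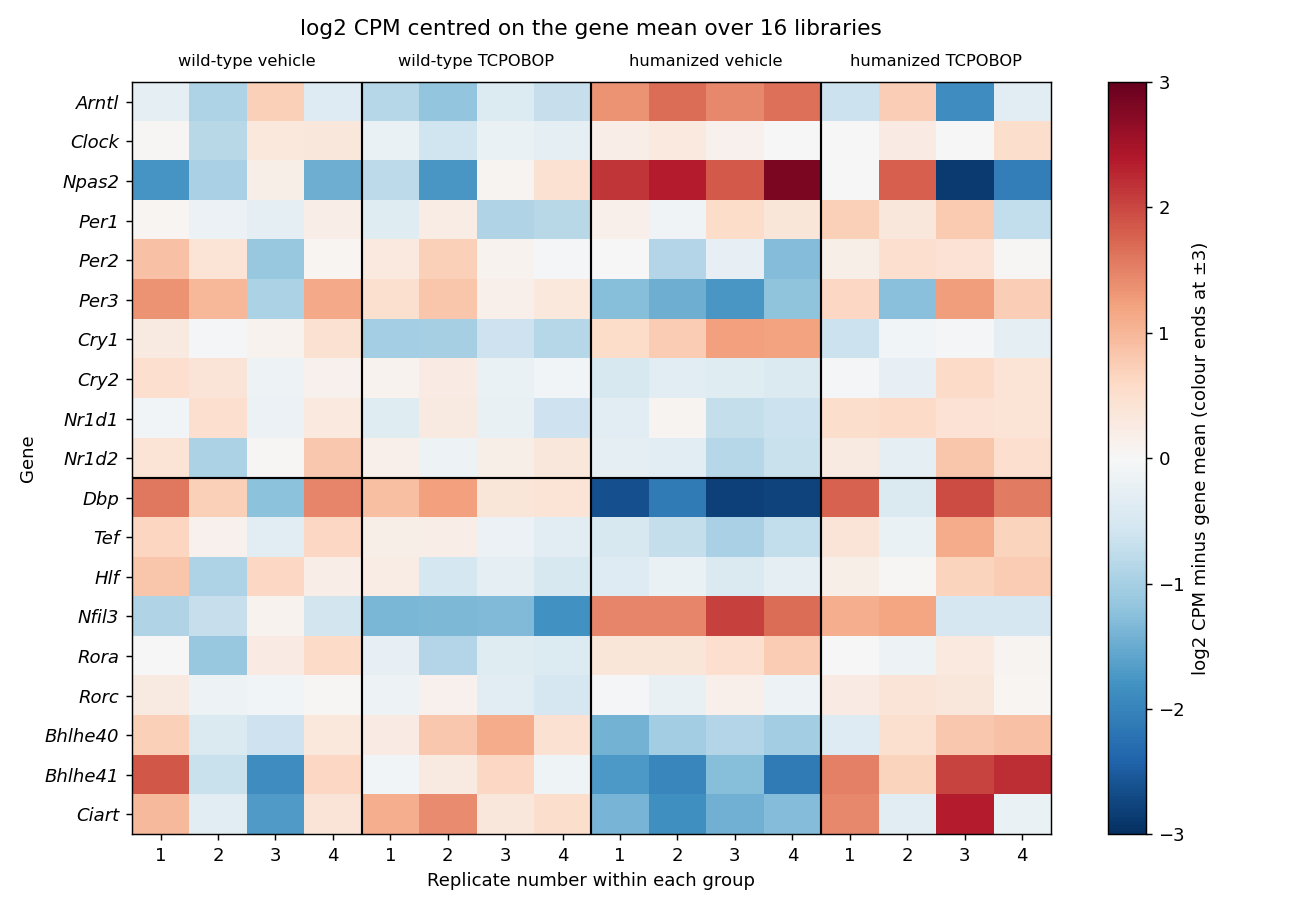
Log2 CPM of the 10 clock genes (above the line) and of 9 related genes (below it) in each library, centred on the mean of each gene over the 16 libraries, with red above and blue below the mean and the colour scale ending at 3. In humanized vehicle livers Arntl, Npas2, Cry1 and Nfil3 are red and Per3, Dbp, Bhlhe41 and Ciart are blue.

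Of 9 genes listed with the second loop and E-box repression, not all of which act in either, 7 were tested, and Rorb and Arntl2 were too low. TCPOBOP raised 3 in humanized liver and none fell, with a median of 0.42, against 2.52% of all genes called. The shares beside the counts below were 13.1% in wild-type liver and 7.46% in the interaction. Between the strains they were 16.1% under vehicle and 24.6% under TCPOBOP. The 3 raised genes are given first. These were the E-box repressors Bhlhe41 (3.47 ± 0.61, adjusted p = 0.00671), Bhlhe40 (1.61 ± 0.31, adjusted p = 0.0111) and Ciart (2.73 ± 0.59, adjusted p = 0.0241). Bhlhe41 was low in humanized vehicle libraries, at 0.626 to 1.12 CPM, and stood at 4.33 to 12.7 CPM in humanized TCPOBOP libraries. The call of Bhlhe40 was lost without humanized vehicle replicate 1 (adjusted p = 0.0565), and that of Ciart without any 1 humanized vehicle library or humanized TCPOBOP replicate 3 (adjusted p from 0.0514 to 0.0909). Under vehicle, 2 were lower in humanized liver, Bhlhe40 (-1.18 ± 0.30, adjusted p = 0.0185) and Bhlhe41 (-2.29 ± 0.62, adjusted p = 0.0227), and none was higher, with a median of -0.32. Bhlhe40 lost that call without humanized vehicle replicate 1 or 4 or wild-type vehicle replicate 1 (adjusted p from 0.0506 to 0.0664), and Bhlhe41 without humanized vehicle replicate 1, 3 or 4 or wild-type vehicle replicate 1 (adjusted p from 0.0501 to 0.0781). The Bhlhe41 difference was -1.47 without wild-type vehicle replicate 1 and did not pass in limma-voom (-1.60, adjusted p = 0.127). Its humanized vehicle libraries held only 6 to 8 counts each. In wild-type liver TCPOBOP raised 2, with a median of 0.60, namely Timeless (1.23 ± 0.28, adjusted p = 0.00521) and Tipin (1.12 ± 0.31, adjusted p = 0.02), which in mammals form a complex that protects replication forks. Tipin lost its call when wild-type TCPOBOP replicate 3 or 4, or replicate 4 of the vehicle group, was left out (adjusted p from 0.0642 to 0.0691). The interaction passed for Bhlhe41 (3.81 ± 0.80, adjusted p = 0.00657) and Timeless (-1.87 ± 0.41, adjusted p = 0.00861). Under TCPOBOP, 1 was higher in humanized liver, Bhlhe41 (1.52 ± 0.50, adjusted p = 0.0331), and 2 were lower, Timeless (-1.91 ± 0.29, adjusted p = 0.00014) and Tipin (-1.02 ± 0.31, adjusted p = 0.0236). There Bhlhe41 did not pass without humanized TCPOBOP replicate 3 or 4 or wild-type TCPOBOP replicate 1, 2 or 4 (adjusted p from 0.0613 to 0.0927), nor Tipin without humanized TCPOBOP replicate 2 or wild-type TCPOBOP replicate 3 or 4 (adjusted p from 0.0652 to 0.0721).

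Of 14 listed genes whose products modify clock proteins or are linked to such modification, the median change with TCPOBOP in humanized liver was 0.23. There 1 rose, Usp2, a deubiquitinating enzyme of the liver clock (2.59 ± 0.52, adjusted p = 0.0151). Its interaction was 2.49 ± 0.70 (adjusted p = 0.036). The humanized rise of Usp2 was lost without humanized vehicle replicate 1 or 4 (adjusted p = 0.0733 and 0.0697), and its interaction held in 7 of 16 fits that left out 1 library (adjusted p up to 0.0861). In wild-type liver 1 rose, the casein kinase Csnk1e (0.63 ± 0.18, adjusted p = 0.0281), with a median of 0.08. Csnk1e was lower in humanized than in wild-type TCPOBOP livers (-0.52 ± 0.18, adjusted p = 0.0443). Leaving out 1 library ended the first Csnk1e call in 6 of 16 fits (adjusted p up to 0.0965) and the second in 10 (adjusted p up to 0.123). Under vehicle 1 was lower in humanized liver, the ubiquitin ligase subunit Fbxw11 (-0.93 ± 0.24, adjusted p = 0.0184), which did not pass without humanized vehicle replicate 1, 3 or 4 (adjusted p from 0.051 to 0.0655). In each comparison of the strains, 6 of the 14 had an unadjusted p under 0.05 and DESeq2 called 3. By edgeR 1 of the 14 was called in every comparison. The share of all genes called was 2.52% in humanized liver. It was 13.1% in wild-type liver, 7.46% in the interaction, and 16.1% and 24.6% between the strains under vehicle and TCPOBOP. Each of these 4 shares is near or above 1 of 14.

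Of 7 clock cofactors, the RNA-binding protein gene Sfpq rose in wild-type liver (0.72 ± 0.21, adjusted p = 0.0292) and the histone methyltransferase gene Kmt2a was higher in humanized vehicle livers (0.77 ± 0.19, adjusted p = 0.0168). Each was 1 of 7, near the 13.1% of all genes called in wild-type liver and the 16.1% called under vehicle. Sfpq lost its call when any 1 of wild-type vehicle replicates 1 to 3 or wild-type TCPOBOP replicates 3 and 4 was left out (adjusted p from 0.0572 to 0.0992). Kmt2a lost its call without humanized vehicle replicate 1 or 3 (adjusted p = 0.0659 and 0.0545). No cofactor passed edgeR's test in the other 3 comparisons, where 1 or 2 had an unadjusted p under 0.05 and DESeq2 called at most 1.

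Of 7 genes of direct clock output, TCPOBOP raised Wee1, a kinase that holds back mitosis, in both strains (wild-type 1.70 ± 0.51, adjusted p = 0.0335, humanized 2.35 ± 0.60, adjusted p = 0.0469). In humanized liver it lowered Cdkn1a, which encodes the cell-cycle inhibitor p21 and is repressed by NR1D1 (-1.84 ± 0.47, adjusted p = 0.0449), and Lonrf3 (-1.20 ± 0.28, adjusted p = 0.0329). In wild-type liver Por, the electron donor of cytochrome P450 enzymes, rose (1.26 ± 0.31, adjusted p = 0.0105) and Herpud1, of the endoplasmic reticulum stress response, fell (-0.75 ± 0.21, adjusted p = 0.0225). Whether a change of any listed gene came through the clock was not tested. Under vehicle, humanized livers held more Cdkn1a (2.92 ± 0.49, adjusted p = 0.00238) and Lonrf3 (1.66 ± 0.28, adjusted p = 0.00243) and less Wee1 (-2.38 ± 0.60, adjusted p = 0.017). The interaction passed for Cdkn1a (-2.91 ± 0.66, adjusted p = 0.0112) and Coq10b (1.74 ± 0.47, adjusted p = 0.0288). Under TCPOBOP 2 genes were higher in humanized than in wild-type liver, Herpud1 (0.86, adjusted p = 0.00686) and Coq10b (1.11, adjusted p = 0.0203). There 2 were lower, Por (-1.37, adjusted p = 0.00429) and Wee1 (-1.74, adjusted p = 0.0207). Of the calls in humanized liver, that of Wee1 held in 5 of 16 fits that left out 1 library (adjusted p up to 0.196), that of Cdkn1a in 7 (up to 0.143) and that of Lonrf3 in 11 (up to 0.106). The Wee1 change there was 1.41 without humanized TCPOBOP replicate 3. In wild-type liver the call of Wee1 held in 10 of these fits (up to 0.0961) and that of Herpud1 in 12 (up to 0.0783). The Coq10b interaction held in 11 (up to 0.0678) and the vehicle difference of Wee1 in 15, failing without humanized vehicle replicate 1 (0.063). Under TCPOBOP the strain differences of Wee1 and Coq10b each held in 13 (up to 0.0675 and 0.0682), and those of Por and Herpud1 in all 16. The shares of all genes called were 2.52% in humanized and 13.1% in wild-type liver and 7.46% in the interaction. Between the strains they were 16.1% under vehicle and 24.6% under TCPOBOP.

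Glucocorticoid and feeding signals reset the liver clock, and genes that respond to them were counted beside it. Of 8 glucocorticoid-responsive genes, 1 of them Per1, none passed edgeR's test with TCPOBOP in humanized liver, where 1 had an unadjusted p under 0.05 and DESeq2 called none, and the median was 0.16. In wild-type liver 1 fell, the metallothionein gene Mt2 (-2.51 ± 0.50, adjusted p = 0.0021), and under vehicle Mt2 was higher in humanized liver (1.86 ± 0.49, adjusted p = 0.0199). Without humanized vehicle replicate 1 or 4 the latter did not pass (adjusted p = 0.0514 and 0.0602). The interaction passed for Mt2 (2.27 ± 0.68, adjusted p = 0.0493) and for the kinase gene Sgk1 (-1.13 ± 0.33, adjusted p = 0.04), in 4 and 5 of 16 fits that left out 1 library (adjusted p up to 0.11 and 0.0968). Under TCPOBOP, Mt2 was higher and Sgk1 lower in humanized liver. The 1 of 8 called in wild-type liver and between the strains under vehicle was near the shares of all genes, 13.1% and 16.1%. The calls under TCPOBOP stood against 24.6% of all genes and those in the interaction against 7.46%. Of 10 fasting and feeding genes, 4 fell in wild-type liver, among them Pck1, Cpt1a and Angptl4, with a median of -0.93. That count stands against 13.1% of all genes called. The call of Angptl4 held in 12 of 16 fits that left out 1 library (adjusted p up to 0.112). In humanized liver 1 rose, against 2.52% of all genes, and the median was 0.26. The interaction passed for 3, all positive, among them Pck1 and Cpt1a, against 7.46% of all genes. That of Cpt1a held in 8 of 16 fits that left out 1 library (adjusted p up to 0.0753). It did not pass in limma-voom (adjusted p = 0.056), on library totals without TMM (0.064) or with the replicate block (0.057). Under vehicle 2 were lower in humanized liver, among them the fatty acid synthase gene Fasn, near the 16.1% of all genes. Under TCPOBOP 3 were higher there, among them Pck1 and Angptl4, and 1 was lower (Fasn), against 24.6% of all genes. Their part in the clock gene values was not tested.

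Likeness to a clock gene was measured as the root mean square (RMS) difference of log2 CPM, each gene centred on its own mean over the 16 libraries, among 9464 genes with a mean of at least 5 CPM. The profile nearest to the mirror image of Arntl was that of Per3 (RMS 0.45), followed by Ciart (0.51), Thrsp (0.52), Tenm3 (0.56) and Usp2 (0.56), where a flat profile would be at 1.05. The profiles most like Arntl included those of Lonrf3 (0.50), Rnf144a (0.53), Mpzl1 (0.55) and Clpx (0.57). For Cry1, where a flat profile would be at 0.68, the most alike were Gabbr1 (0.32), Itih2 (0.35), Emp2, Arg1 and Zfp949 (0.37 each), and the nearest mirror images included Snurf (0.31), Snrpn (0.32), Anpep (0.33) and Asrgl1 (0.34). For Per2, with a flat profile at 0.60, Tlr12 (0.28) led D5Ertd579e, Gorasp1, Arhgap32 and Slc5a6 (0.41 to 0.42), and Ccng2 (0.42) led the mirror images Kif3a, Ccdc125, Cldn1 and Ddc (0.45 each). For Nr1d1, with a flat profile at 0.44, Aagab, Tbc1d10a, Car5a, Wdr45b and Acy3 lay at 0.25 to 0.27 and mirror images that included Ccdc125, Rfx5, Gimap8 and Armc10 at 0.28 to 0.29. These are descriptions over libraries that share their groups, depth and scaling.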

How the data were processed

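RNA-seq counts per RefSeq accession, as deposited by the authors, were used for 16 liver libraries in 4 groups of 4. Per the submitters' processing notes, STAR, DESeq2 and the mm10 build were used upstream. For their versions, the counting program, its annotation and its use of strand, the sources used here give nothing. Of the deposited counts of at least 20, 74.9% were even, so a count may not stand for 1 fragment. Of 40458 accessions, 40219 were joined to genes through RefSeq and 125 through GENCODE, and 114 were not joined. The accession with the highest mean count stood for each of 24970 genes, and the number of columns with no sample was 0.

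Genes were filtered with filterByExpr and tested with edgeR 4.0.16 in R 4.3.3 (TMM scaling, 1 quasi-likelihood model over all 4 groups with 12 residual degrees of freedom, Benjamini-Hochberg adjustment over 12913 genes, two-sided). The common biological coefficient of variation was 0.259. Alternatives used DESeq2 1.42.0, limma 3.58.1 (voom), other scalings, filters, row choices and blocks, and each library left out in turn, and the scripts were tested on simulated data. The 10 clock genes are all named, and of the other lists at most 4 called genes with the smallest p in a comparison. Likeness was taken for Arntl, Per2, Nr1d1 and Cry1, leaving out predicted genes. A few genes that these rules name are not reported here. The members and lists were chosen with earlier results of these data known. The labels give 4 mice per group but not litters or cages, so the p-values measure the spread between these libraries.

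Replicate numbers were taken from the labels. Over the 24 same-numbered pairs of libraries, 6 correlations of deviations from the group means were over 0.1 (range -0.244 to 0.581), so the numbers were not treated as pairs. Between wild-type vehicle and wild-type TCPOBOP they were 0.1, 0.581, 0.218 and 0.176 for replicates 1 to 4, and only replicate 2 matched its own number best. Replicate 2 of these groups stood at 0.156 and 0.191 with humanized TCPOBOP and at -0.127 and -0.068 with humanized vehicle. A feature shared by replicate 2 libraries was not tested.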

Additional observations from a re-analysis of the deposited data

Results flagged for a closer look

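The TCPOBOP effect differed between the strains for 2 of the 10 clock genes, by the test of the difference itself. For Per3 the humanized effect exceeded the wild-type effect by 2.39 on the log2 scale, with effects of 1.99 and -0.39. For Nr1d1 the difference was 1.21, with effects of 0.86 and -0.36. Per3 was lower in humanized than in wild-type vehicle livers, and the 2 TCPOBOP groups did not differ in Per3 past the threshold (0.13 ± 0.41, edgeR adjusted p = 0.845, and 0.45 without humanized TCPOBOP replicate 2, adjusted p = 0.404). On the log2 scale, 2 single libraries lay farther from the rest of their group than Dixon's limit of 0.829 for 4 values allows. Per3 stood at 7.322 CPM in wild-type vehicle replicate 3, where the other 3 held 27.97 to 35.95 CPM (gap over range 0.842). Clock stood at 26.75 CPM in wild-type TCPOBOP replicate 2, where the other 3 held 33.71 to 35.25 CPM (0.838). On the CPM scale no library of the 40 groups of 4 was past that limit, and chance passes it in about 1 in 20 groups.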

How the results depend on the processing

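No log2 change of a clock gene that was called reversed its sign under any alternative. The fall of Cry1 in both strains and the differences of Arntl, Npas2 and Per3 between the strains under vehicle were called in every alternative run and without any 1 library. In humanized liver 4 clock genes changed with TCPOBOP, and DESeq2 called 7, a fit of only the 2 groups called 2, and limma-voom called Npas2 in place of Per3. Between the strains under TCPOBOP 2 differed, and DESeq2 called 4, the fit without a filter on low counts 1, the fit of only the 2 groups 1 and edgeR on library totals without TMM 0 (with TMM, 4 had an unadjusted p under 0.05). Leaving out 1 library gave 1 to 2 called clock genes in wild-type liver, 1 to 5 in humanized liver, 0 to 5 in the interaction, 3 to 6 between the strains under vehicle and 0 to 4 under TCPOBOP. Ranges over all genes in the same fits are given below and moved widely too. The causes were not tested.

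With the replicate number as a block, although the numbers did not pair the libraries throughout, 2 clock genes were called in humanized liver, with Arntl at an adjusted p of 0.05 and Per3 at 0.0515. Between the strains under vehicle the block lost Cry2 (adjusted p = 0.0524) and gained Nr1d1 (-0.54, adjusted p = 0.0438). The number of a library was its best match in 6 of the 24 pairs. The block called 209 genes in humanized liver.

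Over all genes, the 325 calls in humanized liver became 765 in DESeq2, 207 in limma-voom, 604 with every accession tested and 182 with only the 2 groups. The 963 interaction calls became 1481 in DESeq2 and 1814 with every accession tested. With every accession tested the 1691 calls in wild-type liver became 3022, the 2074 between the strains under vehicle 3816 and the 3175 under TCPOBOP 5745. Leaving out 1 library gave 1068 to 2190 calls in wild-type and 74 to 960 in humanized liver, 575 to 1782 in the interaction, 621 to 3425 between the strains under vehicle and 1963 to 4163 under TCPOBOP. Library totals without TMM turned the split of higher and lower calls from 171 and 154 to 72 and 215 in humanized liver, and from 918 and 1156 to 1160 and 757 between the strains under vehicle. They moved the median log2 change of all genes to -0.11 in humanized liver, -0.22 in the interaction and -0.17 between the strains under TCPOBOP. The fit of only the 2 groups was not run for the interaction, which needs all 4. Npas2, with as few as 2 counts in a library, is the clock gene whose precision the depth limits most.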
